A study of Danio rerio with 48 samples.

Results

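The 9 genes described here are the 5 zebrafish peroxisome proliferator-activated receptors (PPARs) pparaa, pparab, pparda, ppardb and pparg, and 4 enzymes of fatty acid oxidation, acox3, acadm, acadvl and cpt1b. They were taken by gene name from a table of 25377 genes, and all 9 were among the 20021 genes with enough counts to be tested. Their levels are described over 3 concentrations of the surfactant PFOS (perfluorooctane sulfonic acid) and the vehicle, at 2 ages.

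The fish were zebrafish of a mixed wild-type line, exposed singly in plate wells from the day of fertilisation with daily renewal. The groups were 0.88, 1.57 and 2.8 µM PFOS and dimethyl sulfoxide (DMSO) alone, each collected at 5 or at 4 days post fertilisation (dpf); all groups, the vehicle controls included, were kept in 0.4% DMSO. Each of the 48 libraries was made from 15 pooled heads cut in front of the swim bladder, and each of the 8 groups had 6 such pools. Whether pools stem from different clutches is not stated, so the tests gauge variation among these pools, which may be partly technical. Libraries were randomised before sequencing, and the sequencing pool of each was not used here. No allele, transgene or other agent is named in the labels.

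PPARs are nuclear receptors that bind fatty acids and their derivatives, pair with retinoid X receptors (RXRs) and switch on genes for taking up, storing and burning fat. In mammals PPAR alpha drives fat burning in the fasting liver, PPAR delta does so in muscle and many other tissues, and PPAR gamma is the main regulator of fat cells. The chain of PFOS resembles that of a fatty acid, and in rodent liver PFOS is known to activate PPAR alpha. pparaa and pparab are the zebrafish genes of the alpha type, pparda and ppardb those of the delta type, and pparg is the gamma receptor. acox3 encodes a peroxisomal acyl-CoA oxidase that acts on branched fatty acids in mammals. acadm and acadvl encode the mitochondrial acyl-CoA dehydrogenases for medium and very long chains, and cpt1b encodes the muscle form of carnitine palmitoyltransferase 1, which passes long-chain fatty acids to the carnitine shuttle into mitochondria.

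The authors' table places pparaa on the minus strand of chromosome 4 at 18609539 to 18635006 and pparab on the plus strand of chromosome 25 at 2198781 to 2254113 (GRCz11). pparda lies on chromosome 22 at 997838 to 1018753 and ppardb on chromosome 8 at 23703464 to 23726041, both on the plus strand, and pparg lies on the minus strand of chromosome 11 at 609516 to 669559. acox3 lies on chromosome 7 at 61764040 to 61806066 and acadvl on the same chromosome at 20298333 to 20333525, both on the plus strand. acadm lies on the minus strand of chromosome 2 at 26470070 to 26476151, and cpt1b on the plus strand of chromosome 18 at 8340886 to 8367567. All are annotated as protein coding. Annotated genes on the same strand overlap pparda (FP067424.1), ppardb (mkrn4), acox3 (sinhcafl) and cpt1b (BX276107.1), and genes on the opposite strand overlap pparaa (pimr168) and pparg (the ribosomal RNA family RF00001). The sources used here do not say whether counting used strand. The estimated count of pparda was not whole in 40 of 48 libraries, that of acadvl in 26 and that of cpt1b in 23, as can arise where reads are split between genes, and their levels are uncertain to that extent.

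Library totals ran from 14475198 to 28926584 counts. The members had between 10 counts (pparda, 0.88 µM PFOS, replicate H at 5 dpf) and 3494 counts (acadvl, 0.88 µM PFOS, replicate I at 5 dpf) in a library. In 3 libraries the profile stood apart from the others of the same age, with median correlations of 0.922 (2.8 µM, replicate A, 4 dpf), 0.941 (1.57 µM, replicate D, 5 dpf) and 0.915 (0.88 µM, replicate H, 5 dpf). Without them the number of members called was the same in each of the 11 comparisons below. The heads held neuron markers at a mean log2 CPM of 6.97 to 7.83 in the 5 dpf pools and 7.05 to 8.02 in the 4 dpf pools. Photoreceptor markers were at 8.34 to 9.05 at 5 dpf and 7.92 to 9.08 at 4 dpf. Markers of trunk organs were measured as well, and their values stand beside the results by age. In pooled heads, fewer cells of a type and less RNA per cell cannot be told apart.

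None of the 9 genes passed the test for PFOS at either age. Over the 6 comparisons of a PFOS concentration with DMSO, the 54 log2 fold changes lay between -0.44 and 0.26. All 54 of their 95% intervals lay within a 2-fold change in either direction, from -0.98 to 0.72 on the log2 scale. Over all genes tested, 73.3% (2.8 µM, 4 dpf) to 79.1% (0.88 µM, 4 dpf) of the intervals in a comparison did so. For 29 of the 54 the interval also lay within 1.5-fold. No adjusted p from edgeR's quasi-likelihood test passed 0.05, no unadjusted p was under 0.05 (the lowest was 0.0832), and DESeq2 and limma-trend on the quantile normalized values called 0 members in each comparison.

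**Figure D1:**
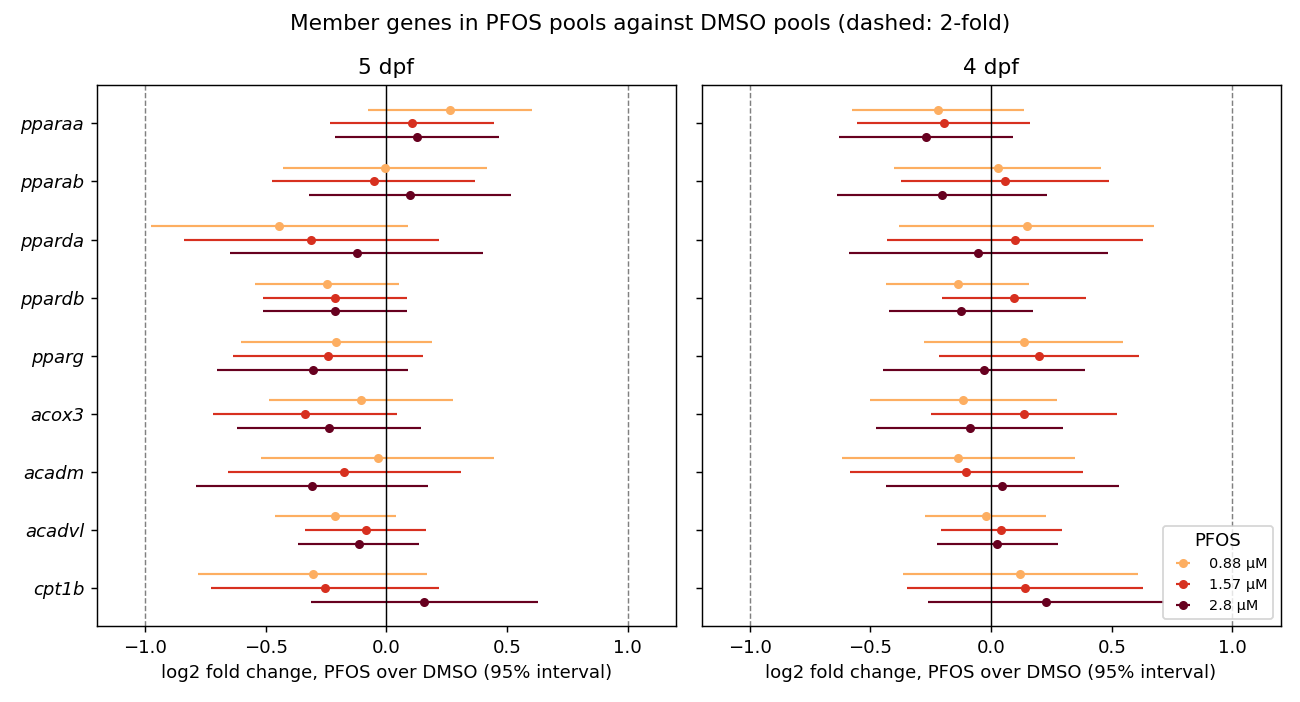
Log2 fold change of each gene in PFOS pools over DMSO pools (points, with 95% intervals as bars) at 5 dpf on the left and 4 dpf on the right, by concentration; dashed lines mark a 2-fold change. All 54 intervals lie between the dashed lines and all 54 include 0.

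These counts stand against a background in which few genes of any kind were called. At 5 dpf, 0% of all genes tested passed the adjusted threshold at 0.88 µM, 0.0799% at 1.57 µM and 0% at 2.8 µM, and 5.18%, 5.04% and 1.92% had an unadjusted p under 0.05. At 4 dpf, 0% passed at each of the 3 concentrations, and 1.96% at 0.88 µM, 1.95% at 1.57 µM and 6% at 2.8 µM had an unadjusted p under 0.05. A linear trend over the concentrations also called 0 of the 9 members at either age by edgeR, DESeq2 and limma-trend, with 0 at an unadjusted p under 0.05. For the trend, 0% of all genes were called at 5 dpf and at 4 dpf, and 1.87% at 5 dpf and 6.1% at 4 dpf had an unadjusted p under 0.05. The members' slopes ran from -0.12 to 0.07 log2 units per µM at 5 dpf and from -0.09 to 0.08 at 4 dpf.

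Among the alpha receptors, pparaa had log2 fold changes of 0.26 ± 0.17 (SE, 6 pools each) at 0.88 µM, 0.11 ± 0.17 at 1.57 µM and 0.13 ± 0.17 at 2.8 µM PFOS at 5 dpf. At 4 dpf the values were -0.22 ± 0.18, -0.20 ± 0.18 and -0.27 ± 0.18 in the same order of concentration. The point estimates of pparaa thus lay above DMSO at the later age and below it at the earlier one, with every interval including 0. For pparab they ran from -0.05 to 0.10 at 5 dpf and from -0.20 to 0.06 at 4 dpf. Without the 3 libraries that stood apart, the pparaa value at 0.88 µM and 5 dpf was 0.12.

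The delta receptors differed in precision, with an SE of 0.26 to 0.27 for pparda and 0.15 for ppardb. pparda, whose point estimate was the farthest from 0 of the 54, was at -0.44 ± 0.26 at 0.88 µM and 5 dpf, with a 95% interval of -0.98 to 0.09. The 6 pools of that group ran from 0.14 to 2.05 log2 CPM with a median of 1.27, and the 6 DMSO pools of that age from 1.04 to 2.39 with a median of 2.04, so the groups overlapped. The lowest of these pools, replicate H, is the library with the lowest median correlation, and without the libraries that stood apart the estimate was -0.32. ppardb was at -0.24, -0.21 and -0.21 at 0.88, 1.57 and 2.8 µM and 5 dpf, each ± 0.15, and at -0.14, 0.10 and -0.12 at 4 dpf. All 6 intervals of ppardb lay within 1.5-fold.

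pparg was at -0.21 ± 0.20, -0.24 ± 0.20 and -0.30 ± 0.20 at 0.88, 1.57 and 2.8 µM and 5 dpf. At 4 dpf its values were 0.13, 0.20 and -0.03. The interval at 2.8 µM and 5 dpf, -0.70 to 0.09, did not reach a 2-fold decrease. The pparg value at 0.88 µM and 5 dpf was -0.33, farther from 0, without the 3 libraries that stood apart.

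Of the enzymes, acox3 had the lowest p of all member values, 0.0832 unadjusted and 0.923 adjusted by edgeR, at 1.57 µM and 5 dpf. The 6 pools at 1.57 µM ran from 2.03 to 2.74 log2 CPM with a median of 2.49, and the 6 DMSO pools from 2.45 to 2.98 with a median of 2.88. The log2 fold change was -0.34 ± 0.19, and the groups overlapped. cpt1b was at -0.30 ± 0.24, -0.25 ± 0.24 and 0.16 ± 0.23 at 0.88, 1.57 and 2.8 µM and 5 dpf, and at 0.12, 0.14 and 0.23 at 4 dpf. acadm ran from -0.31 to -0.04 at 5 dpf and from -0.13 to 0.05 at 4 dpf. acadvl, the enzyme with the tightest intervals, was at -0.21, -0.09 and -0.11 at 0.88, 1.57 and 2.8 µM and 5 dpf and at -0.02, 0.04 and 0.03 at 4 dpf, with an SE of 0.12 or 0.13.

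At 5 dpf, 8 of the 9 point estimates were below 0 at 0.88 µM (pparaa was not), 8 at 1.57 µM (pparaa was not) and 6 at 2.8 µM, with medians over the members of -0.21, -0.21 and -0.12. The medians over all genes tested were 0.00 at each concentration. These comparisons share the 6 DMSO pools. At 4 dpf, 5, 2 and 6 of the 9 were below 0, with medians of -0.02, 0.10 and -0.05, and the medians over all genes were 0.01, 0.01 and 0.03. Exocrine pancreas markers were set beside these values. At 1.57 µM and 5 dpf, edgeR called 12 of 14 lower, with 0 of 14 point estimates above 0 and a list median of -5.31. The level of that list ran from -2.15 to 2.04 in the 1.57 µM pools and from -1.87 to 7.77 in the DMSO pools. At 0.88 µM and 5 dpf the pancreas list had a median of -3.13, with 0 of 14 called and 14 at an unadjusted p under 0.05. Its median at 2.8 µM and 5 dpf was -1.49, with 0 of 14 called and 6 at an unadjusted p under 0.05. The hepatocyte and intestinal lists had medians of -0.51 and -0.55 at 0.88 µM and of -0.68 and -0.84 at 1.57 µM, with 0 of 13 and 0 of 9 called. Heart muscle markers were below 0 in 7 of 9 at 0.88 µM (median -0.20) and 9 of 9 at 1.57 µM (median -0.38). Neuron markers were above 0 in 8 of 10 (median 0.14) and 10 of 10 (median 0.26), with 0 called in either list. At 2.8 µM and 5 dpf the hepatocyte and intestinal medians were -0.34 and -0.51. Heart muscle markers were above 0 there in 1 of 9 (median -0.23) and neuron markers in 9 of 10 (median 0.17), again with 0 called. The pancreas calls were lost with the compared groups alone, with the replicate letter as a block and with limma-trend, under each of which 0 genes of any kind were called. In the 4 dpf pools at 0.88 µM, the hepatocyte and intestinal lists had medians of 0.89 and 0.70, with 13 of 13 and 9 of 9 point estimates above 0. Their 4 dpf medians were 0.37 and 0.16 at 1.57 µM, and -0.15 and -0.06 at 2.8 µM. The pancreas list had 4 dpf medians of -0.47, 0.19 and -0.56 at 0.88, 1.57 and 2.8 µM. Of these 3 lists, 0 genes were called at 4 dpf. Over the 48 libraries, with each group's mean subtracted, Pearson correlations of the members with the pancreas list ran from -0.23 (ppardb) to 0.42 (pparaa). The next highest was 0.11 (cpt1b), and acox3 was at -0.16. The part of these organs' markers in the members' values was not tested.

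The difference between ages in the 2.8 µM response was tested directly. It called 0 of the 9 members by edgeR, DESeq2 and limma-trend, with 0 at an unadjusted p under 0.05, where 0% of all genes were called and 3.82% had an unadjusted p under 0.05. The point estimates ran from -0.35 for acadm to 0.40 for pparaa. For 8 of the 9 the interval lay within a 2-fold change in either direction, beside 50.2% of all genes. The interval of acadm reached -1.04.

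No other gene of the pathway was called for PFOS either. The lists held 120 other genes, for RXRs and coregulators, fatty acid uptake and activation, the carnitine shuttle, mitochondrial beta-oxidation, peroxisomal oxidation and biogenesis, and further genes known to respond to PPARs in vertebrates; 114 were tested. edgeR called 0 of 114 in each of the 6 comparisons with DMSO, as did DESeq2 and limma-trend. At 0.88, 1.57 and 2.8 µM, 10, 12 and 5 of 114 had an unadjusted p under 0.05 at 5 dpf, and 3, 1 and 3 at 4 dpf. As shares these are 8.77%, 10.5% and 4.39% at 5 dpf and 2.63%, 0.877% and 2.63% at 4 dpf, beside the shares over all genes given above. At 2.8 µM the intervals of 98 of the 114 lay within a 2-fold change at 5 dpf and of 98 at 4 dpf. Over all genes the shares were 78.9% at 5 dpf and 73.3% at 4 dpf. The list medians at 2.8 µM and 5 dpf ran from -0.16 for the further PPAR-responsive genes to 0.10 for the RXRs and coregulators. At 2.8 µM and 4 dpf they ran from -0.20 for the RXRs and coregulators to 0.18 for mitochondrial beta-oxidation, in which 18 of 20 genes had point estimates above 0; at 2.8 µM and 5 dpf 4 of those 20 did (median -0.08). Heart muscle markers were above 0 in 9 of 9, skeletal muscle markers in 15 of 16 and photoreceptor markers in 12 of 13 at 2.8 µM and 4 dpf. The RXRs and coregulators were above 0 there in 2 of 21. None of these lists held a called gene. This group includes replicate A, a library that stood apart. The part of the markers in the values of the beta-oxidation list was not tested.

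Most members differed between the ages. Averaged over the 4 concentrations, 7 of the 9 differed between 5 and 4 dpf: pparaa, cpt1b, pparg, acadm, pparab and acox3 were higher at 5 dpf and ppardb was lower. pparda and acadvl did not pass the test. Exposure began on the day of fertilisation, so in the PFOS groups of this average, age and length of exposure cannot be told apart. Over all genes, 22.8% were called higher and 20.5% lower in this comparison, so a call by itself was common, and the members' median log2 fold change was 0.44 where that over all genes was 0.00. In DMSO alone 5 of the 9 were called, all higher at 5 dpf (pparaa, pparg, cpt1b, acadm and acox3), where 9.34% of all genes were called higher and 4.84% lower.

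**Figure D2:**
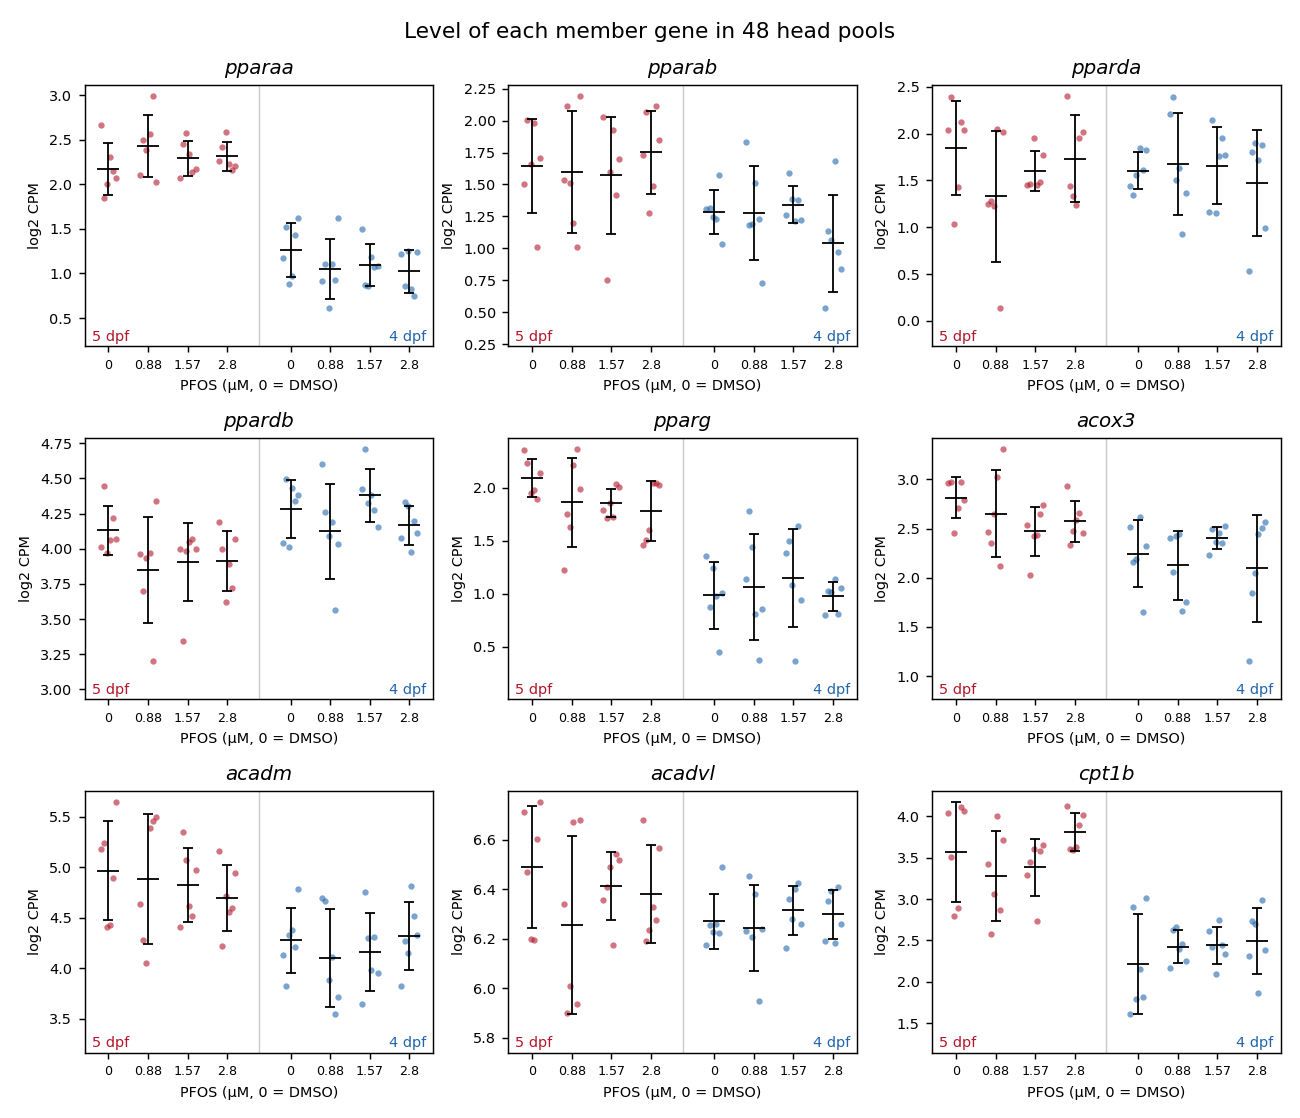
Log2 CPM of each gene (y axis, own scale per panel) in each of the 48 pools (points), by PFOS concentration in µM, with 5 dpf on the left of each panel and 4 dpf on the right; bars are the mean and SD of 6 pools. All 24 pools at 5 dpf lie above all 24 at 4 dpf for pparaa, while the 4 groups of one age overlap for every gene.

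pparaa stood out among the members for how cleanly the ages parted. At 5 dpf its pools ran from 1.84 to 2.67 log2 CPM in DMSO (median 2.11), from 2.03 to 3.00 at 0.88 µM (median 2.45), from 2.08 to 2.58 at 1.57 µM (median 2.26) and from 2.17 to 2.59 at 2.8 µM (median 2.25). At 4 dpf they ran from 0.89 to 1.63 in DMSO (median 1.298), from 0.62 to 1.63 at 0.88 µM (median 1.01), from 0.86 to 1.504 at 1.57 µM (median 1.08) and from 0.74 to 1.26 at 2.8 µM (median 1.04). All 24 pools at 5 dpf were above all 24 pools at 4 dpf, which was so for 0.639% of all genes. The averaged log2 fold change was 1.22 ± 0.09 (2.34-fold, 95% interval 2.07 to 2.64, edgeR adjusted p = 8.96e-16), and in DMSO alone it was 0.93 ± 0.17 (adjusted p = 0.000101). Of the other alpha receptor, pparab, 20 of the 24 pools at 5 dpf were above the median of the 4 dpf pools. Its level was 0.76 to 2.20 at 5 dpf (median 1.68) and 0.54 to 1.83 at 4 dpf (median 1.23), so the ages overlapped, and the averaged log2 fold change was 0.44 ± 0.11 (adjusted p = 0.000606). In DMSO alone pparab was at 0.41 ± 0.21 and did not pass (adjusted p = 0.210).

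The gamma receptor pparg was the other receptor whose DMSO pools did not overlap between ages. At 5 dpf its pools ran from 1.89 to 2.35 log2 CPM in DMSO (median 2.06), from 1.22 to 2.37 at 0.88 µM (median 1.87), from 1.72 to 2.03 at 1.57 µM (median 1.83) and from 1.46 to 2.04 at 2.8 µM (median 1.81). At 4 dpf they ran from 0.45 to 1.35 in DMSO (median 0.99), from 0.38 to 1.78 at 0.88 µM (median 1.00), from 0.37 to 1.64 at 1.57 µM (median 1.23) and from 0.80 to 1.14 at 2.8 µM (median 1.02). DMSO pools at 5 dpf lay wholly above those at 4 dpf for pparaa and pparg, as they did for 5.15% of all genes. The averaged change of pparg was 0.85 ± 0.10 (1.81-fold, adjusted p = 1.85e-09), and 16 of 24 pools at 5 dpf were above the highest pool at 4 dpf. Of the 7 fat cell markers set beside it, plin1, adipoqa and cidec had too few counts to be tested, and lepb had no match by name. Of the 3 that were tested 1 was higher and 1 lower, with a median of 0.19 averaged over concentrations and -0.12 in DMSO.

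The delta receptors did not follow the others. ppardb fell by 0.28 ± 0.07 on the log2 scale at 5 dpf (adjusted p = 0.00170), and 22 of the 24 pools at 5 dpf were below the median of the 4 dpf pools. Its level was 3.20 to 4.44 at 5 dpf (median 3.99) and 3.57 to 4.71 at 4 dpf (median 4.27). In DMSO alone the value was -0.16 ± 0.15 and did not pass (adjusted p = 0.541). pparda was at 0.14 to 2.41 at 5 dpf (median 1.47) and 0.54 to 2.39 at 4 dpf (median 1.67), with a change of 0.03 ± 0.13 and a 95% interval of -0.23 to 0.30.

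Among the enzymes, cpt1b had the largest change. At 5 dpf its pools ran from 2.80 to 4.12 log2 CPM in DMSO (median 3.77), from 2.58 to 4.01 at 0.88 µM (median 3.25), from 2.73 to 3.65 at 1.57 µM (median 3.51) and from 3.59 to 4.12 at 2.8 µM (median 3.76). At 4 dpf they ran from 1.61 to 3.01 in DMSO (median 1.98), from 2.17 to 2.67 at 0.88 µM (median 2.42), from 2.10 to 2.75 at 1.57 µM (median 2.43) and from 1.87 to 2.99 at 2.8 µM (median 2.54). All 24 pools at 5 dpf were above the median of the 4 dpf pools and 19 were above the highest of them. The averaged change was 1.14 ± 0.12 (2.20-fold, adjusted p = 9.73e-11), and in DMSO, where the ages overlapped, it was 1.36 ± 0.24 (adjusted p = 5.04e-05).

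acadm was at 4.05 to 5.65 at 5 dpf (median 4.80) and 3.55 to 4.81 at 4 dpf (median 4.24), an averaged change of 0.65 ± 0.12 (adjusted p = 1.87e-05). acox3 was at 2.03 to 3.31 at 5 dpf (median 2.62) and 1.16 to 2.62 at 4 dpf (median 2.36), a change of 0.40 ± 0.10 (adjusted p = 0.000563). In DMSO alone acadm was at 0.73 ± 0.24 (adjusted p = 0.0330) and acox3 at 0.56 ± 0.19 (adjusted p = 0.0411), both near the threshold. With the replicate letter as a block, acadm gave 0.51 (adjusted p = 0.159) and acox3 0.45 (adjusted p = 0.133). Without any 1 of the DMSO libraries D, F, H and I at 4 dpf or B, C, H and I at 5 dpf, acox3 lost this call (adjusted p between 0.0518 and 0.127). Without any 1 of A, D, F, G and H at 4 dpf or B, C, H and I at 5 dpf, acadm lost it (between 0.0520 and 0.140). acadvl was at 5.90 to 6.75 at 5 dpf (median 6.38) and 5.95 to 6.49 at 4 dpf (median 6.26), with a change of 0.12 ± 0.06 that did not pass (adjusted p = 0.128) and an upper bound of 0.24.

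**Figure D3:**
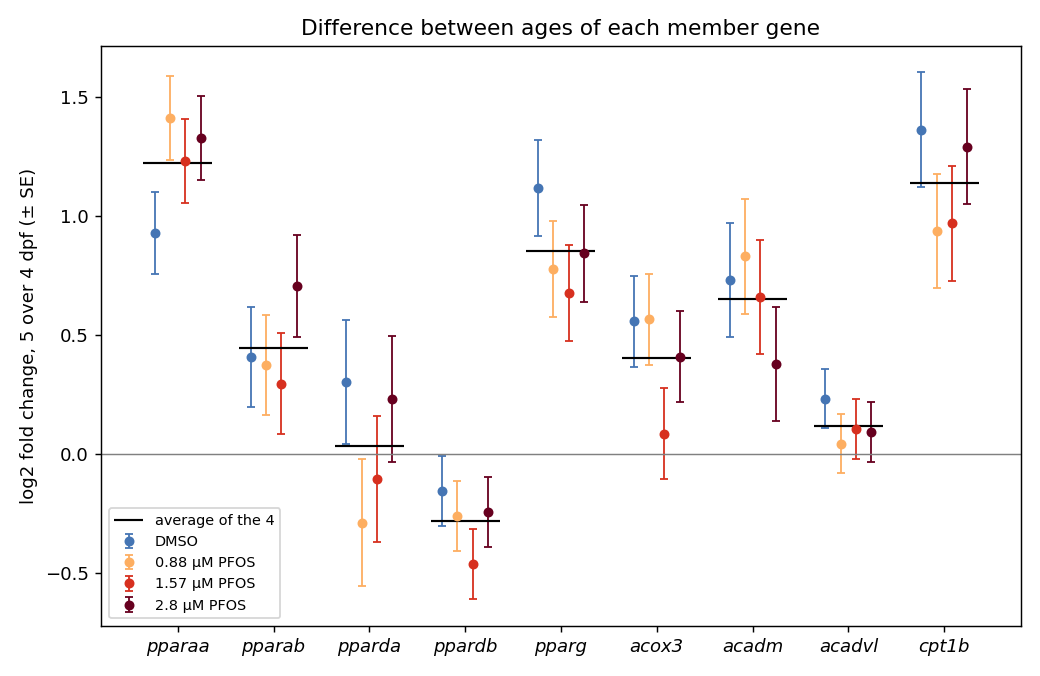
Log2 fold change at 5 over 4 dpf of each gene in DMSO and at 0.88, 1.57 and 2.8 µM PFOS (points, ± SE, 6 pools per group) and averaged over the 4 (black lines). pparaa, pparg and cpt1b lie above 0 at each concentration by more than 0.6, ppardb lies below 0 at each, and pparda lies on both sides of 0.

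Within each concentration the changes with age kept the same sign for 8 of the 9 genes. pparaa was at 0.93 in DMSO and at 1.41, 1.23 and 1.33 at 0.88, 1.57 and 2.8 µM PFOS, with an SE of 0.17 to 0.18. cpt1b was at 1.36 in DMSO and at 0.94, 0.97 and 1.29, each ± 0.24, and pparg was at 1.12 in DMSO and at 0.78, 0.68 and 0.84, each ± 0.20. ppardb was at -0.16, -0.26, -0.46 and -0.25 in the same order, each ± 0.15. pparda was the exception, at 0.30, -0.29, -0.11 and 0.23, each ± 0.26 to 0.27. Differences between concentrations in these changes were tested for 2.8 µM against DMSO alone, with the values above. Among groups of one age, the pools overlapped in all 108 pairs of groups over the 9 genes. How often such groups overlap over all genes was not computed, so this overlap cannot be called particular to the members.

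Markers of trunk organs moved with age as well. Averaged over the concentrations, 13 of 13 hepatocyte markers were higher at 5 dpf (median log2 fold change 2.67), as were 9 of 9 intestinal markers (median 2.42) and 14 of 14 exocrine pancreas markers (median 5.39). The mean log2 CPM of the hepatocyte list was 4.69 to 7.18 at 5 dpf and 1.06 to 4.47 at 4 dpf, that of the intestinal list 1.15 to 4.59 at 5 dpf and -1.09 to 1.86 at 4 dpf, and that of the pancreas list -2.15 to 7.77 at 5 dpf and -2.58 to 0.86 at 4 dpf. Of 16 skeletal muscle markers 7 were higher and 2 lower, and the list level was 7.83 to 8.90 at 5 dpf and 7.42 to 8.58 at 4 dpf. Of 9 heart muscle markers 5 were higher and 2 lower, with 2.79 to 4.00 at 5 dpf and 2.55 to 3.78 at 4 dpf. Of 10 ionocyte markers 7 were higher and 0 lower, with 5.09 to 5.67 at 5 dpf and 4.38 to 5.19 at 4 dpf. Of 13 photoreceptor markers 5 were higher and 2 lower, and of 10 neuron markers 0 were higher and 2 lower. Over all genes, 22.8% were called higher and 20.5% lower in this comparison. Beside that, the shares were 43.8% and 12.5% for skeletal muscle, 38.5% and 15.4% for photoreceptors and 0% and 20% for neurons. For heart muscle they were 55.6% and 22.2%, and for ionocytes 70% and 0%. The part of all these markers in the members' differences between ages was not tested.

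Other genes of the pathway also differed with age: of the 114, 47 were higher at 5 dpf and 18 lower when averaged over concentrations, and 37 were higher and 4 lower in DMSO. As shares these are 41.2% and 15.8% averaged, against 22.8% and 20.5% of all genes, and 32.5% and 3.51% in DMSO, against 9.34% and 4.84% of all genes. The lists were chosen with earlier results of these data known, so these shares are a description only. The part of the trunk organs, whose markers were also higher at 5 dpf, in these differences was not tested. The median log2 fold change over the 114 was 0.17 averaged and 0.25 in DMSO. Of 23 further PPAR-responsive genes 15 were higher and 2 lower (65.2% and 8.70%). Those with the smallest p were the uncoupling protein genes, with ucp1 at 5.52 ± 0.24, ucp3 at 3.25 ± 0.23 and ucp2 at 1.24 ± 0.12, together with pdk2b, which encodes a kinase that turns off pyruvate dehydrogenase, at 1.95 ± 0.17. ucp1 averaged 7.96 log2 CPM over the 24 pools at 5 dpf and 2.53 over the 24 at 4 dpf. ucp3 was low, at 1.16 and -1.86 in the same order. klf11a was at -0.60 ± 0.11 and hmgcs1, an enzyme of cholesterol synthesis, at -0.32 ± 0.08.

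**Figure D4:**
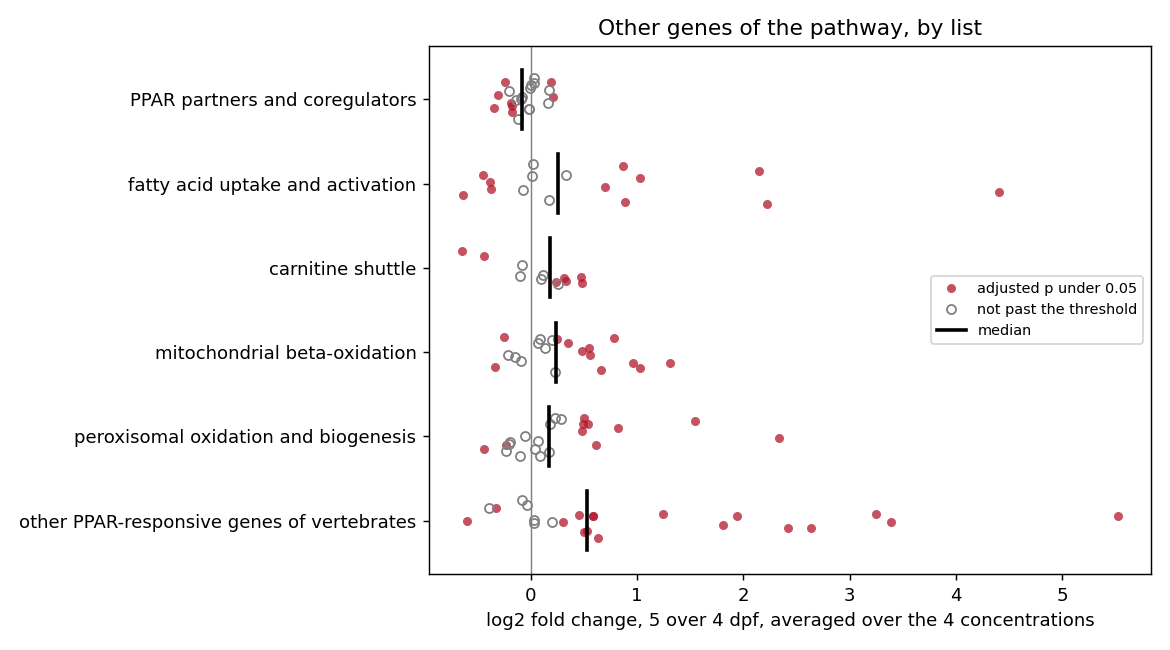
Log2 fold change at 5 over 4 dpf, averaged over the 4 concentrations, of 114 other genes of the pathway (x axis) in 6 lists (y axis); filled points passed an adjusted p of 0.05 in edgeR, open points did not, and black bars are list medians. The point farthest to the right is ucp1 at 5.52, and the RXR and coregulator genes lie close to 0 with a median of -0.08.

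Of 20 genes listed under mitochondrial beta-oxidation, 10 were higher and 2 lower (50.0% and 10.0%). That list was not limited to enzymes of fatty acids and held further acyl-CoA dehydrogenases, acad8 among them. Those higher included acads, the short-chain acyl-CoA dehydrogenase, at 1.03 ± 0.13, and etfa, etfb and etfdh, which carry electrons from the acyl-CoA dehydrogenases to the respiratory chain, at 0.97 ± 0.13, 1.31 ± 0.19 and 0.56 ± 0.08. hadhab, a subunit gene of the trifunctional protein, was at -0.33 ± 0.05 and acad8 at -0.25 ± 0.10. Of 22 peroxisomal genes 8 were higher and 2 lower (36.4% and 9.09%), a share called in either direction close to that over all genes. Among those higher were pex7, a receptor for protein import, at 2.33 ± 0.17, ehhadh, the bifunctional enzyme, at 1.55 ± 0.17, and hsd17b4 at 0.82 ± 0.14. The lower ones were abcd3b at -0.44 ± 0.16 and pex19 at -0.24 ± 0.10.

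In the carnitine shuttle 5 of 12 genes were higher and 2 lower (41.7% and 16.7%), and in DMSO alone 2 were higher and 0 lower. The liver-type carnitine palmitoyltransferase genes differed in direction from each other, with cpt1aa at -0.44 ± 0.07 and cpt1ab at 0.24 ± 0.09, beside the 1.14 ± 0.12 of cpt1b. acaca and acacb, which make the malonyl-CoA that blocks this step, were at 0.31 ± 0.06 and 0.48 ± 0.12, crata was at 0.33 ± 0.12, and slc22a5, a carnitine transporter, at -0.65 ± 0.20. Of 16 uptake and activation genes 7 were higher and 4 lower. acsl5 (4.41 ± 0.34), acsbg1 (2.22 ± 0.29), slc27a2a (2.15 ± 0.27) and slc27a1b (0.89 ± 0.13) were higher, and acsl4a (-0.63 ± 0.08), acsbg2 (-0.44 ± 0.07), acsl3b (-0.38 ± 0.06) and slc27a4 (-0.37 ± 0.10) were lower. Levels of acsl5 and acsbg1 were low, at means of 1.24 and -0.19 log2 CPM at 5 dpf and -2.27 and -2.01 at 4 dpf, so their fold changes are less certain. Of 21 RXR and coregulator genes 2 were higher and 6 lower (9.52% and 28.6%), no more in all than the shares over all genes. Each of these differed by less than 0.4. rxrbb, an RXR, was at -0.35 ± 0.08, the corepressor nrip1a at -0.31 ± 0.11 and med1 at -0.24 ± 0.08. ep300a was at -0.17 ± 0.06, crebbpa at 0.19 ± 0.08 and ncoa1 at 0.21 ± 0.09. In DMSO alone 0 of the 21 genes were called.

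Across pools of the same group the members did not vary as one set. Over the 48 libraries, with each group's mean subtracted, acadvl and cpt1b had a Pearson correlation of 0.77, pparda and acadvl 0.71, pparda and ppardb 0.62, and acadm and acadvl 0.62. pparaa lay between -0.46 (with pparab) and 0.06 (with cpt1b) against the other members, with -0.40 for acox3. The values share their libraries and their scaling: the correlation with the library's TMM factor was 0.68 for acox3, 0.64 for pparab, 0.56 for pparda and -0.58 for pparaa, against 0.18 for acadvl and -0.08 for cpt1b. acadvl and cpt1b correlated with the heart muscle markers (0.73 and 0.66), with 0.92 and 0.84 at 5 dpf and 0.39 and 0.42 at 4 dpf. The other members' values with heart muscle at 5 dpf ran from -0.34 (pparaa) to 0.82 (pparda), with 0.75 for acox3 and 0.69 for acadm. acadvl and cpt1b had negative correlations with the neuron markers (-0.63 and -0.62), as did pparda (-0.64) and acadm (-0.60). Photoreceptor markers, also of the head, went the other way: 0.58 for acadvl, 0.39 for cpt1b, 0.57 for pparda and 0.48 for acadm. With the ionocyte list acadvl had 0.76, and pparda and acadm 0.72 each. For acadvl and cpt1b the ionocyte values were 0.89 and 0.87 at 5 dpf and 0.63 and 0.16 at 4 dpf. Their hepatocyte values were 0.70 and 0.77 at 5 dpf and 0.03 and 0.05 at 4 dpf. With the skeletal muscle list the members ran from -0.62 (pparab) to 0.47 (cpt1b). With the 3 fat cell markers tested they ran from -0.65 (pparab) to 0.42 (pparaa), with 0.08 for pparg. With the intestinal list they ran from -0.31 (pparab) to 0.38 (pparaa). The part of these markers in the members' levels was not tested.

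By the same measure, among 12201 genes with a mean log2 CPM of at least 1 the most like pparaa were dusp16 (0.73), prrc1 (0.72) and sox18 (0.72), and the most like pparab were dusp8a (0.81), dab2ipb (0.80) and prr5a (0.79). pparda was most like slc1a5 (0.88), cdh30 (0.88) and col4a1 (0.87), ppardb was most like lingo4b, lmnb2 and dyrk4 (0.84, 0.84 and 0.83), and pparg had the loosest matches in tmbim1b (0.70), hsdl2 and ugt2a7 (0.56 each). For the enzymes the leading matches were GK3P for acox3 (0.79), rbb4l for acadm (0.87), glud1a for acadvl (0.85) and jupa for cpt1b (0.78). acadvl was the next after jupa for cpt1b, the one case of a member among the 3 genes most like another member. Without the 3 libraries that stood apart these leading correlations ran between 0.69 (tmbim1b and pparg) and 0.88 (slc1a5 and pparda).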

How the data were processed

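Libraries of polyA RNA from zebrafish heads were sequenced as 75-cycle single reads, per the labels' protocols. The submitters' processing notes name STAR 2.5.3a, Partek 8.0.19.0428 and the build GRCz11. For the annotation and the strand setting, no source used here gives a name. In the deposited table are estimated counts per gene, of which 81.2% were within 0.01 of a whole number; fractional values can arise where the authors' quantification split reads between genes. A further deposited table holds quantile normalized log2 values for 20466 genes.

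The estimated counts of 25377 genes were rounded, filtered with filterByExpr by group (20021 genes kept) and scaled by TMM in edgeR 4.0.16 (R 4.3.3). The quasi-likelihood F test was fitted to all 48 libraries as 8 group means, and p-values were adjusted by Benjamini-Hochberg over 20021 genes, with a threshold of 0.05. Standard errors and 95% intervals come from that fit and cover the spread between pools. Levels are log2 CPM (log2 of CPM, depth-scaled counts, with a prior count of 2) and are not scaled by transcript length. Library totals ran between 14475198 and 28926584 counts. The labels name no molecular identifiers. The fit was tested on simulated data.

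Every member is described in every comparison. From each pathway list at most 4 called genes per direction with the smallest p are named; 1 gene so chosen is not reported here. The genes likened to a member are the 3 with the highest correlation among genes with a mean log2 CPM of at least 1. The members and lists were chosen with earlier results of these data known. The fit was repeated with DESeq2 1.42.0, with limma-trend (limma 3.58.1) on the quantile normalized values, with RLE scaling, without the filter, with at least 1 CPM required in 6 libraries, on the compared groups alone, with a block for the replicate letter, with each library left out in turn, and without the libraries whose median correlation was under 0.95.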

Additional observations from a re-analysis of the deposited data

Results flagged for a closer look

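In 72 sets of 6 pools (9 genes in 8 groups), 2 held a pool far from the others, where chance flags about 1 set in 20. ppardb was at 3.34 log2 CPM in replicate D of 1.57 µM PFOS at 5 dpf, where the nearest pool was at 3.98; that library is one of the 3 with a low median correlation. acadvl was at 6.49 log2 CPM in replicate I of DMSO at 4 dpf, where the nearest pool was at 6.26. No call on ppardb or acadvl changed when either pool was left out.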

How the results depend on the processing

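Across 8 alternative settings and the 48 libraries left out in turn, the 54 PFOS values of the members were recomputed 1080 times. None passed the threshold, the lowest adjusted p was 0.283, and the values ran from -0.61 to 0.42 on the log2 scale; 53 had another sign than the value reported. Of the 11 comparisons, the number of members called moved by more than 1.5 times for age in DMSO alone. There it was 3 with the replicate block, between 3 and 5 with a library left out, and 4 or 5 under the other settings, against 5 as reported. pparaa, pparg and cpt1b were called under each of these settings. acox3 lost its call without the filter (adjusted p = 0.0576), with the CPM filter (0.0519), with the block and when 8 of 12 single libraries were left out; acadm lost it with limma-trend (0.0556), with the block and when 9 of 12 single libraries were left out. The cause was not tested. Averaged over concentrations, 7 members were called under every setting, the replicate block included. Pools with the same letter did not deviate together in every pair. Their correlations ran from -0.42 to 0.53 and were below 0.1 in at least 1 pair of each comparison with DMSO. The labels do not say what the letters mean, and they were not taken as pairs. The pancreas markers called lower at 1.57 µM and 5 dpf were among 16 genes called. That count was 0 with the replicate block, with the compared groups alone and with limma-trend, and between 1 and 40 with a library left out. Of the 54 PFOS intervals 29 lay within 1.5-fold, and the others reached past it. Intervals were not recomputed under the alternatives, so whether all stay within 2-fold there is not known. With 1 library left out, the estimate of pparda at 0.88 µM and 5 dpf reached -0.61.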
